A study of Mus musculus with 20 samples.

Results

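The genes described here make cholesterol inside the cell or set how much of it is made. They are 28 of the 24513 genes in the count tables. These 28 were chosen by name for their place in the pathway, with earlier results of these data known. They comprise 9 genes of the mevalonate arm (Acly, Acat2, Hmgcs1, Mvk, Pmvk, Mvd, Idi1, Fdps and Ggps1), 11 genes of the sterol arm (Fdft1, Sqle, Lss, Cyp51, Tm7sf2, Msmo1, Nsdhl, Hsd17b7, Ebp, Sc5d and Dhcr7), 7 genes that control the SREBP transcription factors (Srebf1, Srebf2, Scap, Insig1, Insig2, Mbtps1 and Mbtps2) and the cholesterol carrier Stard4. All 28 passed the low-count filter and were among the 16657 genes tested. The data are polyadenylated RNA from the hippocampus of male mice, 9 months old, with the strain given as C57BL/6J, in 4 genotypes of 5 libraries each. The WT libraries carry neither alteration. C3aR KO libraries are labelled as lacking the receptor for the complement fragment C3a. PS19 libraries come from a transgenic tauopathy line, in which, as background, the mouse prion protein promoter drives a human mutant tau, and PS19/C3aR KO libraries carry both. Nothing in the labels ties each library to an animal of its own, and p-values given here reflect only how these libraries vary.

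Cholesterol synthesis begins with acetyl-CoA, which the mevalonate arm builds into isoprenoid units. The sterol arm joins these into squalene, closes the rings and trims the product to cholesterol, while side branches feed ubiquinone, dolichol and protein prenylation. In sterol-rich cells INSIG proteins hold SCAP and the SREBP precursors in the endoplasmic reticulum. When sterol falls, SCAP carries them to the Golgi, where the proteases encoded by Mbtps1 and Mbtps2 release the active factors. SREBP2, the product of Srebf2, mainly drives cholesterol genes, and SREBP1, the product of Srebf1, mainly drives fatty acid genes. The brain makes nearly all of its own cholesterol, because lipoproteins do not cross the blood-brain barrier, and astrocytes and oligodendrocytes make much of it in the adult.

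Each library held between 33885850 and 47828111 counts assigned to genes, and single member counts ran from 348 (Tm7sf2) to 14436 (Srebf2). The ribosomal RNA precursor gene Rn45s, whose RNA is not polyadenylated, took between 2.85% and 4.48% of counts in WT libraries and between 0.873% and 1.77% in 4 of the 5 PS19 libraries, with PS19 library 5 at 3.65%. In the C3aR KO libraries its share ran from 0.923% to 4.34%, and in the PS19/C3aR KO libraries from 1.04% to 3.03%. The level of Prnp, the gene the transgene's promoter comes from, is given in CPM, which are counts scaled to a common library size. It averaged 888 and 852 CPM in WT and C3aR KO libraries, and 1885 and 1897 CPM in the PS19 and PS19/C3aR KO libraries, which follows the transgene labels, and Mapt, the mouse tau gene, averaged 525 ± 27.8 CPM in WT and 618 ± 21.03 CPM in PS19 (SD, n = 5). C3ar1, the gene named as deleted, did not follow its label: it averaged 2.09 CPM in the WT libraries, where it was lowest, and 15.98 CPM in the libraries labelled C3aR KO. PS19 libraries averaged 10.3 CPM of C3ar1, and those labelled PS19/C3aR KO 17.00 CPM. Directions that rest on the deletion are therefore directions between libraries labelled in this way. Which part of C3ar1 the deletion removes, and whether these counts come from outside it, was not tested.

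Divided by exon length, the 28 genes spanned a wide range of levels in the WT hippocampus. Hmgcs1, the synthase that makes HMG-CoA, was highest at 50.5 CPM per kilobase of exon, followed by Srebf2 at 38.1 and by Acly, which supplies cytosolic acetyl-CoA, at 32.4. Insig1 stood at 20.5, Fdft1 at 18.4, Scap at 16.9 and Srebf1 at 15.5 CPM per kilobase. At the low end were Stard4 at 2.81, the sterol reductase gene Tm7sf2 at 3.10, Mbtps2 at 3.21 and the lanosterol synthase gene Lss at 3.25. The length is that of all annotated exons of a gene, and the release used for counting is not given, so these ranks depend on the divisor. Exons of Mbtps2 overlap those of Yy2 on the same strand over 28.4% of their length. Per kilobase of exon, the Srebf2 level was thus above that of Srebf1 in WT tissue. The library-to-library spread of the members within a genotype had a median coefficient of variation of 10.4%, against 10.8% for all genes tested, from 3.63% for Scap to 16.2% for Insig1.

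**Figure D1:**
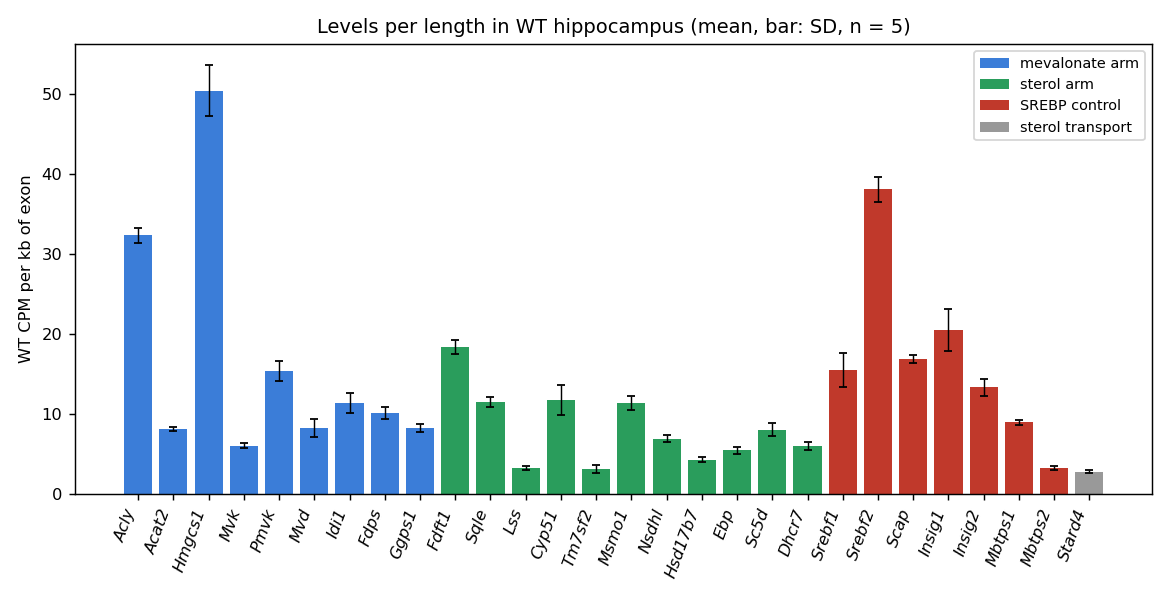
Mean WT level of each of the 28 members in CPM per kilobase of exon (vertical, from 0), with members grouped and coloured by role and error bars for the SD of 5 libraries. Hmgcs1 is highest at 50.5 and Stard4 lowest at 2.81 CPM per kilobase.

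The PS19 libraries, compared with WT, addressed how the tau transgene alone goes with the pathway. Of the 28 members, 7 were lower in PS19 and 1 was higher. The genes that fell were Fdft1, Stard4, Mvd, Tm7sf2, Hmgcs1, Nsdhl and Srebf2, with log2 fold changes from -0.42 to -0.27, and the gene that rose was Srebf1, at 0.42. Together these are 28.6% of the members, where 10.8% of all genes tested passed the same test in either direction. The lower calls were 25% of the members against 3.32% of all genes, and higher calls made up 7.5% of all genes. As the members were chosen with earlier results of these data known, these shares describe the list and are no independent test. The median log2 fold change over the 28 members was -0.15, against -0.0068 over all genes, and 25 of the 28 were below 0. The test was edgeR's quasi-likelihood test at an adjusted p of 0.05, over all 16657 genes. Of the 28 members, only Stard4 had PS19 and WT ranges that did not meet, with all PS19 values lower, as did 3.11% of all genes. With the Rn45s share of each library as a term in the fit, 0 of the 28 passed. In bulk tissue, fewer cells of a type and less RNA per cell cannot be told apart.

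**Figure D2:**
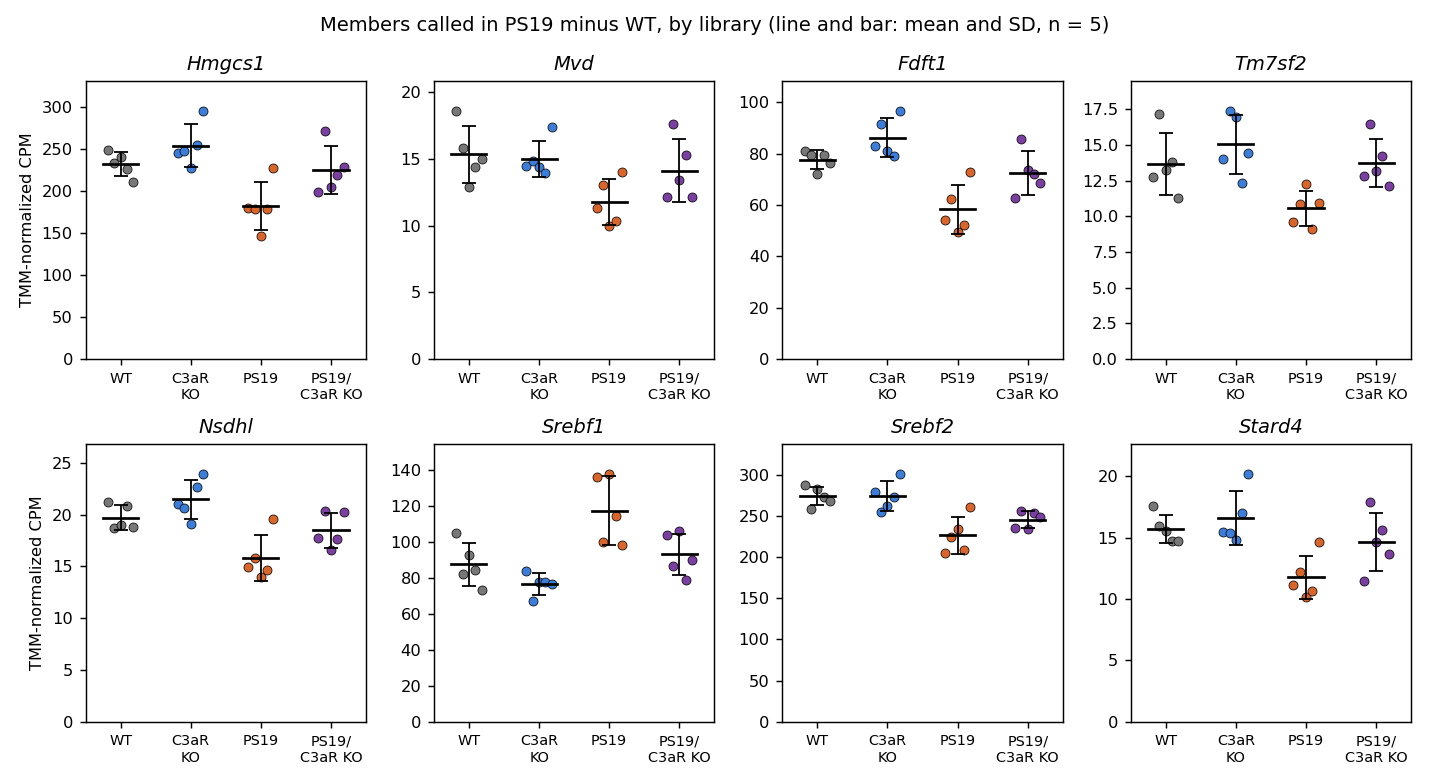
CPM in each of the 20 libraries (points) by genotype for the 8 members called between PS19 and WT, with bars for the mean of 5 libraries and its standard deviation. In 7 panels the PS19 points lie mostly under the WT points, with PS19 library 5 the highest PS19 point in every one except Tm7sf2, and in the Srebf1 panel the order is turned round.

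In the mevalonate arm, all 9 genes had a fold change below 0 in PS19 and 2 passed the test. Hmgcs1 (chr13:119690379-119708260, plus strand, mm10), at the entry to the arm, read 249, 234, 239.8, 226 and 211 CPM in WT libraries 1 to 5 and 179.9, 178, 146, 179 and 227 CPM in PS19 libraries 1 to 5. PS19 libraries 1 to 4 lay under every WT value and library 5 lay within the WT range. The means were 232 ± 14.5 CPM (SD, n = 5) in WT and 182 ± 28.9 CPM (SD, n = 5) in PS19, with a log2 fold change of -0.35, SE 0.10 and edgeR adjusted p = 0.0284. Mvd (chr8:122433601-122443422), whose enzyme makes isopentenyl diphosphate, read 18.6, 15.8, 12.9, 14.4 and 15.02 CPM in WT and 11.3, 13.04, 10.01, 10.4 and 14.02 CPM in PS19. The Mvd groups overlapped through WT library 3 and PS19 libraries 2 and 5, and the difference had a log2 fold change of -0.38, SE 0.12 and edgeR adjusted p = 0.0427. Among the other genes of the arm, Fdps, the farnesyl diphosphate synthase gene at the branch to sterols, had a log2 fold change of -0.27, SE 0.10 and edgeR adjusted p = 0.0865, and the isomerase gene Idi1 had a log2 fold change of -0.19, SE 0.12 and edgeR adjusted p = 0.344. Exons of Fdps overlap those of Gm43738 on the same strand over 26.7% of their length. The remaining 5, Acly, Acat2, Mvk, Pmvk and Ggps1, had fold changes from -0.15 (Mvk) to -0.0074 (Acly). Acly, the supplier of acetyl-CoA to fatty acids as well as sterols, averaged 171 ± 5.07 CPM in WT and 170.1 ± 9.04 CPM in PS19 (SD, n = 5), with a 95% interval of -0.11 to 0.10 around its fold change.

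In the sterol arm, 3 of the 11 genes passed the test, all lower in PS19, and the arm's median was -0.24. Fdft1 (chr14:63145150-63179578, minus strand), the gene of squalene synthase and the first step committed to sterols, read 80.8, 79.5, 72.03, 79.7 and 76.4 CPM in WT and 54.1, 62.5, 49.5, 52.3 and 72.9 CPM in PS19. Only PS19 library 5 reached the lowest WT value. The means were 77.7 ± 3.57 CPM in WT and 58.3 ± 9.52 CPM in PS19 (SD, n = 5), with a log2 fold change of -0.42, SE 0.094 and edgeR adjusted p = 0.00731. Exons of Fdft1 overlap those of Ctsb on the opposite strand over 18.3% of their length, and the strand setting of the counting is not given in the sources used here. Ctsb itself was higher in PS19, by 0.52 on the log2 scale (edgeR adjusted p = 0.000449), the direction opposite to that of Fdft1. Nsdhl, whose dehydrogenase removes methyl groups from sterol intermediates, read 21.2, 18.7, 18.98, 20.9 and 18.8 CPM in WT and 14.95, 15.8, 13.97, 14.7 and 19.6 CPM in PS19, with PS19 library 5 again within the WT range (a log2 fold change of -0.32, SE 0.087 and edgeR adjusted p = 0.0224). Tm7sf2, a sterol reductase gene, read 12.8, 17.2, 13.2, 13.8 and 11.3 CPM in WT and 9.60, 10.8, 12.3, 9.12 and 10.9 CPM in PS19, with a log2 fold change of -0.37, SE 0.12 and edgeR adjusted p = 0.0485. Its groups overlapped at PS19 library 3, and its exons overlap those of Vps51 on the same strand over 12.1% of their length. Exons of Hmgcs1 overlap those of the opposite-strand gene Gm48342 over 12.1%. Exons of Srebf1 overlap those of Rai1, on the opposite strand, and Mir6922, on the same strand, over 3.11% together.

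Just outside the threshold stood Msmo1, the methylsterol monooxygenase gene that acts beside Nsdhl, with a log2 fold change of -0.33, SE 0.11 and edgeR adjusted p = 0.0528. Sqle, the squalene epoxidase gene, had a log2 fold change of -0.30, SE 0.10 and edgeR adjusted p = 0.0747, and Lss had a log2 fold change of -0.24, SE 0.089 and edgeR adjusted p = 0.0878. Cyp51, the lanosterol demethylase gene, averaged 51.8 ± 8.24 CPM in WT and 46.96 ± 6.23 CPM in PS19 (SD, n = 5), a log2 fold change of -0.14. The other 4 genes of the arm stood at fold changes between -0.15 and 0.093: Dhcr7 at -0.15, Hsd17b7 at -0.060, Sc5d at -0.044 and Ebp, the sterol isomerase gene, at 0.093. Ebp was the only member of either arm with a fold change above 0, and its 95% interval ran from -0.038 to 0.22. None of these 8 genes passed the test.

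**Figure D3:**
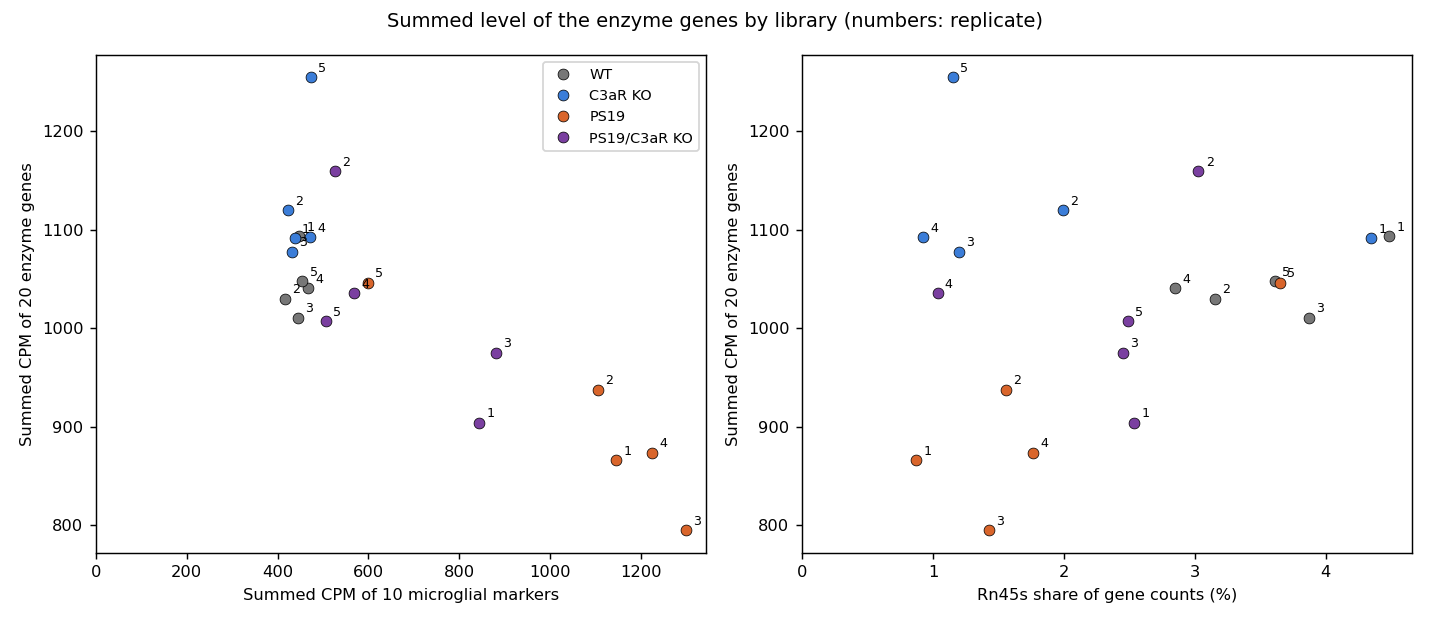
Summed CPM of the 20 enzyme genes of both arms (vertical, axis not starting at 0) in each of the 20 libraries, against the summed CPM of 10 microglial markers (left) and the Rn45s share of gene counts in percent (right), with points coloured by genotype and numbered by replicate. PS19 libraries 1 to 4 lie at 795 to 937 CPM, under every WT library, and PS19 library 5 lies at 1046 CPM inside the WT range of 1011 to 1093 CPM.

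Summed over the 20 enzyme genes, the WT libraries held between 1011 and 1093 CPM with a median of 1040.5, and PS19 libraries 1 to 5 held 866, 937, 795, 874 and 1046 CPM. The C3aR KO libraries held between 1078 and 1254 CPM and the PS19/C3aR KO libraries between 904 and 1159 CPM. PS19 library 5 thus sat at the WT level. It also had the lowest summed microglial markers of its group, 598 CPM against 1105 to 1300.2 CPM in the other 4, and the highest Rn45s share. Without that library, 11 members were called in place of 8, where 13.4% of all genes passed: Fdps, Sqle, Lss and Msmo1 joined, Tm7sf2 left, Fdft1 stood at -0.51 (edgeR adjusted p = 0.000425) and Srebf2 at -0.33 (edgeR adjusted p = 0.000342). The library was singled out by its level of these same genes, so larger differences without it follow from that choice. They are given as a description only.

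Among the SREBP control genes, the transcript of one factor fell in PS19 and that of the other rose. Srebf2 (chr15:82147181-82205379, plus strand) read 287, 259, 282, 273 and 268 CPM in WT and 205, 224, 234, 209 and 261 CPM in PS19. The 4 lowest PS19 values lay under the WT range, and PS19 library 5 lay inside it. Its means were 274 ± 11.2 CPM in WT and 227 ± 22.5 CPM in PS19 (SD, n = 5), with a log2 fold change of -0.27, SE 0.059 and edgeR adjusted p = 0.00534. Srebf1 (chr11:60199089-60222581, minus strand) read 105, 82.1, 92.8, 84.4 and 73.3 CPM in WT and 136, 99.9, 138, 114 and 97.98 CPM in PS19. PS19 libraries 1, 3 and 4 lay over every WT value, and libraries 2 and 5 lay inside the WT range. The means of Srebf1 were 87.5 ± 12.02 CPM in WT and 117 ± 19.1 CPM in PS19 (SD, n = 5), with a log2 fold change of 0.42, SE 0.11 and edgeR adjusted p = 0.0178. The ratio of Srebf1 to Srebf2 CPM in a library, not divided by length and so set side by side only between libraries, lay between 0.274 and 0.366 for WT and between 0.376 and 0.664 for PS19. For C3aR KO it lay between 0.254 and 0.299, and for PS19/C3aR KO between 0.310 and 0.453. WT and PS19 did not overlap in this ratio, which is given as a description since both genes were already called.

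The escort, retention and protease genes did not pass the test in PS19. Scap, the escort, read 123, 123, 124, 133 and 125 CPM in WT and 118, 124, 123, 111 and 121 CPM in PS19, which overlap. It averaged 126 ± 3.95 CPM in WT and 119 ± 5.35 CPM in PS19 (SD, n = 5), a log2 fold change of -0.073 with a 95% interval of -0.15 to 0.0044. Insig1, a retention gene that is itself an SREBP target, read 74.2, 68.2, 55.8, 55.9 and 63.2 CPM in WT and 54.4, 56.4, 46.9, 48.8 and 66.9 CPM in PS19. These ranges overlapped, and the log2 fold change was -0.22 with a 95% interval of -0.50 to 0.068. Insig2, the second retention gene, read 49.8, 40.6, 48.04, 45.6 and 47.6 CPM in WT and 42.4, 45.4, 41.1, 42.9 and 47.3 CPM in PS19, again overlapping. Its fold change stood at -0.080, and those of the protease genes Mbtps1 and Mbtps2 at -0.081 and 0.033, with edgeR adjusted p between 0.315 and 0.786. Stard4, which carries cholesterol between membranes, read 17.6, 15.9, 15.6, 14.7 and 14.7 CPM in WT and 11.1, 12.2, 10.2, 10.7 and 14.6 CPM in PS19. Every PS19 value lay under every WT value, the closest being 14.6 in PS19 library 5 and 14.7 in WT libraries 4 and 5 (a log2 fold change of -0.42, SE 0.12 and edgeR adjusted p = 0.0250).

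The promoters of the 4 members with the lowest p between PS19 and WT, among those in the RefSeq table, are printed to show what genes that moved share in sequence and where they differ. Hmgcs1 and Srebf2 fell and hold a stretch of the sterol regulatory element, Nsdhl fell and holds none of the letters searched for it, and Srebf1 rose. Each sequence is the 250 bases before the RefSeq transcription start in GRCm38.p6, 5′ to 3′ on the gene's strand, and capitals mark the letters searched: TCACNCCAC and its shorter form TCACCCCA for the sterol regulatory element, CACGTG for the E-box, CCAAT for NF-Y and GGGCGG for Sp1, on both strands. For Srebf1 the most upstream of 3 listed starts was taken.
Hmgcs1, chr13:119690101-119690350, plus strand: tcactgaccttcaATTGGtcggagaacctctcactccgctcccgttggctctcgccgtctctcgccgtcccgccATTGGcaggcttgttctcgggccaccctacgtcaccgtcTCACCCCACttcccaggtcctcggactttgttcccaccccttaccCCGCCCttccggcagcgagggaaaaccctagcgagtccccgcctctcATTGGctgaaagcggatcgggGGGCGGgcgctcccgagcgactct
Srebf2, chr15:82147019-82147268, plus strand: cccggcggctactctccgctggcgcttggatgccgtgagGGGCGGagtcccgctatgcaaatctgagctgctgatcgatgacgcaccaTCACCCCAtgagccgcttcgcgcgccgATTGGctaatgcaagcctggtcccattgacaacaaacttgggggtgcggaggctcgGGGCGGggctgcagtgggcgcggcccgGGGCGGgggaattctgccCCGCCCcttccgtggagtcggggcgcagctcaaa
Nsdhl, chrX:72918271-72918520, plus strand: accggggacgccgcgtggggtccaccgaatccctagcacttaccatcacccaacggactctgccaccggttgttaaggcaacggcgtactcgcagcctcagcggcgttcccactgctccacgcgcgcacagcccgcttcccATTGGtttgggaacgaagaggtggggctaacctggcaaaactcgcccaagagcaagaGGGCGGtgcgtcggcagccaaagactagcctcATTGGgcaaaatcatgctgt
Srebf1, chr11:60222582-60222831, minus strand: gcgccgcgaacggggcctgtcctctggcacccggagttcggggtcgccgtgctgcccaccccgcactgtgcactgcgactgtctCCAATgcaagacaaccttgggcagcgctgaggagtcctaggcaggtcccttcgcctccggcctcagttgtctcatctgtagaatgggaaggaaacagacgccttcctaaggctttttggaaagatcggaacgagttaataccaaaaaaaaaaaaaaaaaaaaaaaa
The RefSeq table held 24 of the 28 members, without Fdps, Fdft1, Sqle and Stard4. TCACNCCAC occurred in 1 of these 24, Hmgcs1, beginning 137 bases before the start, or 4.17% of members against 1.22% of 27025 genes with a promoter in the table. The shorter TCACCCCA, which overlaps it and was added after the sequences were seen, occurred in Hmgcs1 and Srebf2, or 8.33% of members against 1.54%. CCAAT occurred in 19 of the 24 (79.2%, against 37.5% of all genes), GGGCGG in 21 (87.5%, against 35.4%) and CACGTG in 5 (20.8%, against 6.86%). The 5 members in the table that fell in PS19, Hmgcs1, Mvd, Tm7sf2, Nsdhl and Srebf2, all held both CCAAT and GGGCGG, and none held CACGTG. Members that were not called, such as Hsd17b7, Ebp, Sc5d and Insig2, held both as well, as did Srebf1, which rose, over its listed starts. Holding both thus does not set apart the members that fell. The shares over all genes take in genes that were not tested here. The Srebf1 window printed here held one CCAAT and no GGGCGG, while Srebf1 counts among the 21 members with GGGCGG through another of its 3 listed starts. A match of letters is a description of the sequence, and binding was not measured.

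Other genes of the surrounding pathways were counted from fixed lists, also chosen with earlier results of these data known. The counts are to be read against the 7.5% of all genes that were called higher and the 3.32% called lower. Of 20 fatty acid and other SREBP targets, 3 were higher in PS19 and 0 lower, with a median of -0.028: Aldoc, a glycolytic aldolase gene of astrocytes, by 0.29, Lpin1, a phosphatidate phosphatase gene, by 0.15, and Elovl5, a fatty acid elongase gene, by 0.28, with edgeR adjusted p of 0.00666, 0.0316 and 0.0336. Fasn, the fatty acid synthase gene and a classical SREBP1 target, was not among them, at -0.076 (edgeR adjusted p = 0.590). Of 14 genes that use isoprenoids outside the sterol branch, 1 was higher, Fnta, a protein prenyltransferase subunit, at 0.17 (edgeR adjusted p = 0.0340), a share near that of all genes, and the median was -0.064. None of 10 genes of the sterol-dependent degradation machinery of the endoplasmic reticulum passed the test, with a median of 0.0026. Of 12 genes of cholesterol turnover and LXR response, 3 were higher and 0 lower, with a median of 0.27. These were Abca1, the cholesterol exporter, at 0.96, Apoe, the brain's main apolipoprotein, at 0.63, and Soat1, which esterifies cholesterol for storage, at 0.42. Of 12 sterol transport genes of late endosomes and the endoplasmic reticulum, 4 were higher, with a median of 0.14: Npc2 at 0.77, Scarb2 at 0.30, Npc1 at 0.28 and Lipa, which is named because it completes the count, at 0.31. The synthesis genes that passed the test were thus lower in PS19, while those of export, storage and lysosomal handling that passed it were higher.

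Cell type markers moved in the same comparison, where 7.5% of all genes were called higher and 3.32% lower. All 10 microglial markers were higher in PS19 (median 1.03), and their summed level was 417 to 467 CPM among WT libraries and 598 to 1300.2 CPM among PS19 libraries. The same sum was 424 to 474 CPM among C3aR KO and 506 to 881 CPM among PS19/C3aR KO libraries. Of 10 astrocyte markers 6 were higher, with sums of 5776 to 6224 CPM in WT and 6890.4 to 10536 CPM in PS19. Of 10 mature oligodendrocyte markers 3 were higher and all 10 were above 0, with sums of 3633 to 5578 CPM in WT and 6043 to 6796 CPM in PS19, and of 8 oligodendrocyte precursor markers 2 were higher. Of 10 neuron markers 2 were lower, Slc17a7 and Rbfox3, with sums of 10043 to 12164 CPM in WT and 9450.1 to 10879 CPM in PS19. Of the same 10, 8 were below 0 and 2 above it, up to 0.24, with a median of -0.11. No marker passed among 8 for dentate and CA neurons, all of which were below 0 with a median of -0.27, or among 8 for endothelium, with a median of 0.023. None passed among 8 for choroid plexus, all above 0 with a median of 1.02, or among 6 for ependyma, all above 0 with a median of 0.59. Choroid plexus sums varied widely within genotypes, from 174 to 3052 CPM in WT and from 295 to 6014 CPM in PS19, and ependymal sums were 7.63 to 35.7 CPM in WT and 29.7 to 57.6 CPM in PS19. Among these lists no marker was at 0 in any library, and 4 of 5 red blood cell genes were listed at 0 in every library. The part of cell composition in the member differences was not tested.

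The Rn45s share was lower in 4 of the 5 PS19 libraries than in any WT library. With that share as a covariate, 0 of the 28 members passed edgeR's test between PS19 and WT, where 2.59% of all genes did, and 9 had an unadjusted p under 0.05, 8 of them lower. How many of all genes had an unadjusted p under 0.05 in this fit is not given here. The fold changes in that fit were -0.33 for Fdft1 (edgeR adjusted p = 0.116), -0.21 for Srebf2 (0.103), -0.26 for Hmgcs1 (0.260), -0.24 for Nsdhl (0.228), -0.31 for Mvd (0.271), -0.38 for Tm7sf2 (0.173), -0.36 for Stard4 (0.182) and 0.45 for Srebf1 (0.0958). All 8 kept their direction. The part of the Rn45s share in the member differences was not tested beyond this fit.

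Leaving out single libraries moved the number of members called between PS19 and WT from 8 to between 2 and 11. It was 3 without WT library 1, 5 without WT library 2, 4 without WT library 4, 2 without PS19 library 1, and 3 without either PS19 library 3 or PS19 library 4. The share of all genes called moved as well, from 10.8% with all libraries to 13.4% without PS19 library 5. That share is not given here for the other fits, so the member counts in them cannot be set against it. Fdft1 and Srebf2 were called in all 20 of these fits, with highest edgeR adjusted p values of 0.0262 and 0.0194. Srebf1 lost its call without WT library 5 (0.0507), PS19 library 1 (0.0578) or PS19 library 3 (0.0624). Stard4 lost it without WT library 1 or PS19 library 1, 3 or 4, up to 0.0769. Nsdhl lost it without WT library 1 or 4 or PS19 library 1, 3 or 4, up to 0.0711. Hmgcs1 lost it without any one of WT libraries 1 to 4 or PS19 libraries 1 to 4, up to 0.0862. Mvd lost its call in 11 fits, up to 0.123, without WT library 1, 2, 4 or 5, C3aR KO library 1, 2 or 3, PS19 library 1, 3 or 4, or PS19/C3aR KO library 3. Tm7sf2 lost it in 13, up to 0.137, without WT library 1, 2, 3 or 4, C3aR KO library 1 or 5, PS19 library 1, 2, 4 or 5, or PS19/C3aR KO library 1, 3 or 4. Mvd and Tm7sf2 also missed the threshold without a filter (edgeR adjusted p = 0.0529 and 0.0581), with only the groups compared (0.0617 and 0.0677) and with library size scaling (0.0807 and 0.111). Mvd missed it with a choroid plexus covariate (0.0523), and Tm7sf2 with upper-quartile scaling (0.0612) and with limma-voom (0.0585).

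**Figure D4:**
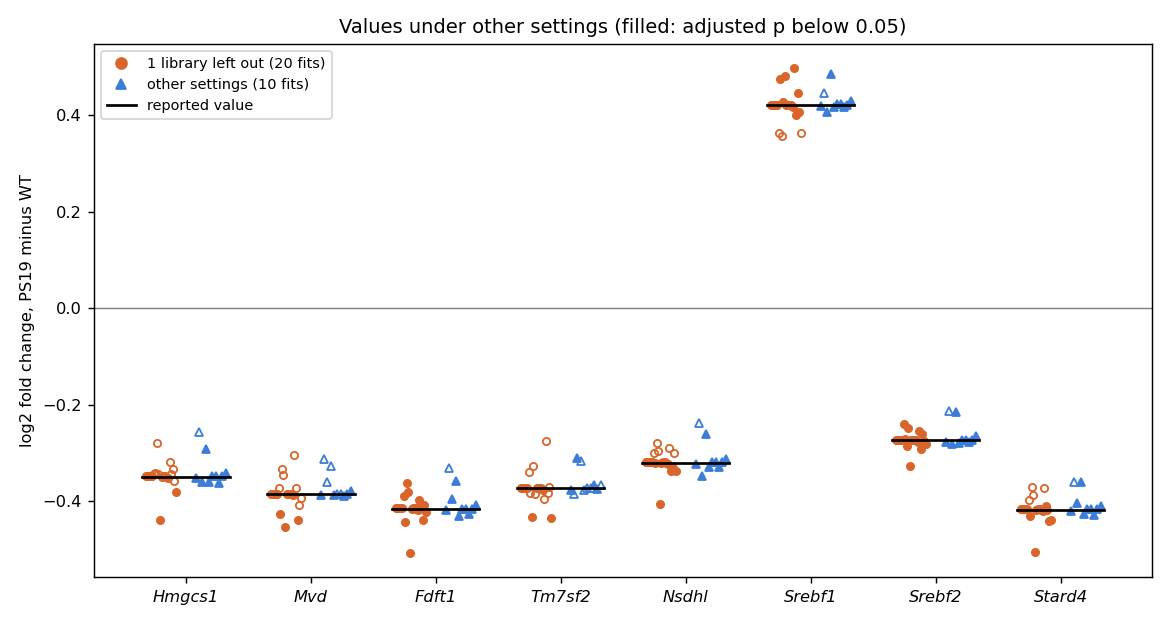
Log2 fold change between PS19 and WT (vertical) for the 8 called members, with the reported value as a line, circles for the 20 fits that each leave out 1 library and triangles for the 10 other settings, filled where the adjusted p is under 0.05. Every point keeps the direction of the reported value, and Fdft1 and Srebf2 have only filled circles.

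Comparing libraries labelled C3aR KO with WT addressed the receptor deletion without the transgene. None of the 28 members passed edgeR's test, where 0.06% of all genes did, and 4 had an unadjusted p under 0.05, where 6% of all genes did: Acly, Cyp51 and Sc5d, higher, and Ggps1, lower. DESeq2 and limma-voom also called 0. Over the 28 members the median log2 fold change was 0.046, against -0.0022 over all genes, with 22 above 0 and 6 below. The medians were 0.027 in the mevalonate arm and -0.056 among the SREBP control genes. All 11 sterol arm genes had fold changes above 0, with a median of 0.13, led by Cyp51 at 0.26 (edgeR adjusted p = 0.801) and Sc5d at 0.22 (edgeR adjusted p = 0.801). The share of all genes above 0 is not given here. Sterol arm sums ran from 409 to 462 CPM in WT and from 458 to 532 CPM in C3aR KO libraries, overlapping between 458 and 462 CPM. Hmgcs1 read 245, 247, 227, 254 and 295 CPM in C3aR KO libraries 1 to 5 and Fdft1 82.8, 91.6, 80.95, 78.97 and 96.7 CPM, with library 5 the highest for both genes. Srebf2 averaged 274 ± 18.2 CPM against 274 ± 11.2 CPM in WT (SD, n = 5), a difference with a 95% interval of -0.12 to 0.12 on the log2 scale. Srebf1 averaged 76.4 ± 6.01 CPM against 87.5 ± 12.02 CPM, with a log2 fold change of -0.20, SE 0.11 and edgeR adjusted p = 0.874.

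Comparing PS19/C3aR KO with PS19 libraries addressed the deletion in the presence of the transgene. None of the 28 members passed edgeR's test, where 0.252% of all genes did. At an unadjusted p under 0.05 there were 12 members, 10 higher and 2 lower, or 42.9% of members against 14.5% of all genes. Hmgcs1 read 199, 271, 204, 219 and 229 CPM in PS19/C3aR KO libraries 1 to 5, around a mean of 225 ± 28.6 CPM (SD, n = 5), against 182 ± 28.9 CPM in PS19 (a log2 fold change of 0.30, SE 0.10 and edgeR adjusted p = 0.161). Fdft1 read 62.7, 85.6, 73.6, 71.97 and 68.5 CPM (a log2 fold change of 0.32, SE 0.094 and edgeR adjusted p = 0.127), and Tm7sf2 averaged 13.8 ± 1.69 CPM (a log2 fold change of 0.38, SE 0.12 and edgeR adjusted p = 0.136). The means of these genes lay nearer to WT than those of the PS19 libraries did, and the ranges of PS19 and PS19/C3aR KO libraries overlapped for all 3. These 3 genes had been called lower in the same PS19 libraries against WT. Means nearer to WT in another group are thus favoured by that choice and are no separate result about the deletion. Srebf1 read 104, 86.8, 106, 78.7 and 89.9 CPM and had a log2 fold change of -0.34, SE 0.11 and edgeR adjusted p = 0.162. Srebf2 averaged 245 ± 10.4 CPM and had a log2 fold change of 0.11, SE 0.059 and edgeR adjusted p = 0.393. Nsdhl averaged 18.5 ± 1.69 CPM, Mvd 14.1 ± 2.34 CPM and Stard4 14.7 ± 2.37 CPM (SD, n = 5), against 15.8 ± 2.22, 11.8 ± 1.73 and 11.8 ± 1.76 CPM in PS19, with edgeR adjusted p of 0.225, 0.305 and 0.199. Ggps1, whose enzyme makes the geranylgeranyl group for protein prenylation, had the lowest unadjusted p of the members and was lower, with a log2 fold change of -0.26, SE 0.066 and edgeR adjusted p = 0.0881.

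Other tools and libraries changed that count. DESeq2 called 2 members, Fdft1 at 0.32 (adjusted p = 0.0493) and Ggps1 at -0.26 (adjusted p = 0.0249), where it called 2.66% of all genes, and limma-voom called 0. Without PS19 library 5, edgeR called 4 members, all higher in PS19/C3aR KO: Fdft1 at 0.41 (adjusted p = 0.0128), Hmgcs1 at 0.39 (0.0253), Nsdhl at 0.32 (0.0284) and Msmo1 at 0.39 (0.0313), where 2.87% of all genes passed. PS19 library 5 was singled out by its level of these same genes, near that of WT, so larger differences without it follow from that choice. This comparison also shares its PS19 libraries with the one between PS19 and WT. PS19/C3aR KO libraries 1 and 3, with the highest microglial sums of their group at 844 and 881 CPM, had enzyme sums of 904 and 975.1 CPM, and libraries 2, 4 and 5, with microglial sums of 527, 569 and 506 CPM, had enzyme sums of 1159, 1035 and 1007 CPM. The part of microglial content in the comparison was not tested.

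The transgene comparison was also made among libraries labelled C3aR KO, which shares no library with the comparison between PS19 and WT. None of the 28 members passed edgeR's test between PS19/C3aR KO and C3aR KO, where 0.006% of all genes did. DESeq2 and limma-voom called 0 as well, and 8 members had an unadjusted p under 0.05, 7 lower and Srebf1 higher, where 9.71% of all genes did. Fdft1 stood at -0.25, Nsdhl at -0.22, Sqle at -0.22, Hmgcs1 at -0.18, Stard4 at -0.18, Srebf2 at -0.16 and Srebf1 at 0.28 on the log2 scale. The sign of the transgene difference was the same with and without the deletion for 27 of 28 members (96.4%), against 72.3% of all genes, and 24 members were below 0 in both (85.7%, against 37.3%). The exception was Insig2, at -0.080 without and 0.0042 with the deletion. All 8 members called between PS19 and WT had a smaller difference here, although they were picked where their difference was large, and over all members 22 of 28 (78.6%) were smaller, against 67.3% of all genes.

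**Figure D5:**
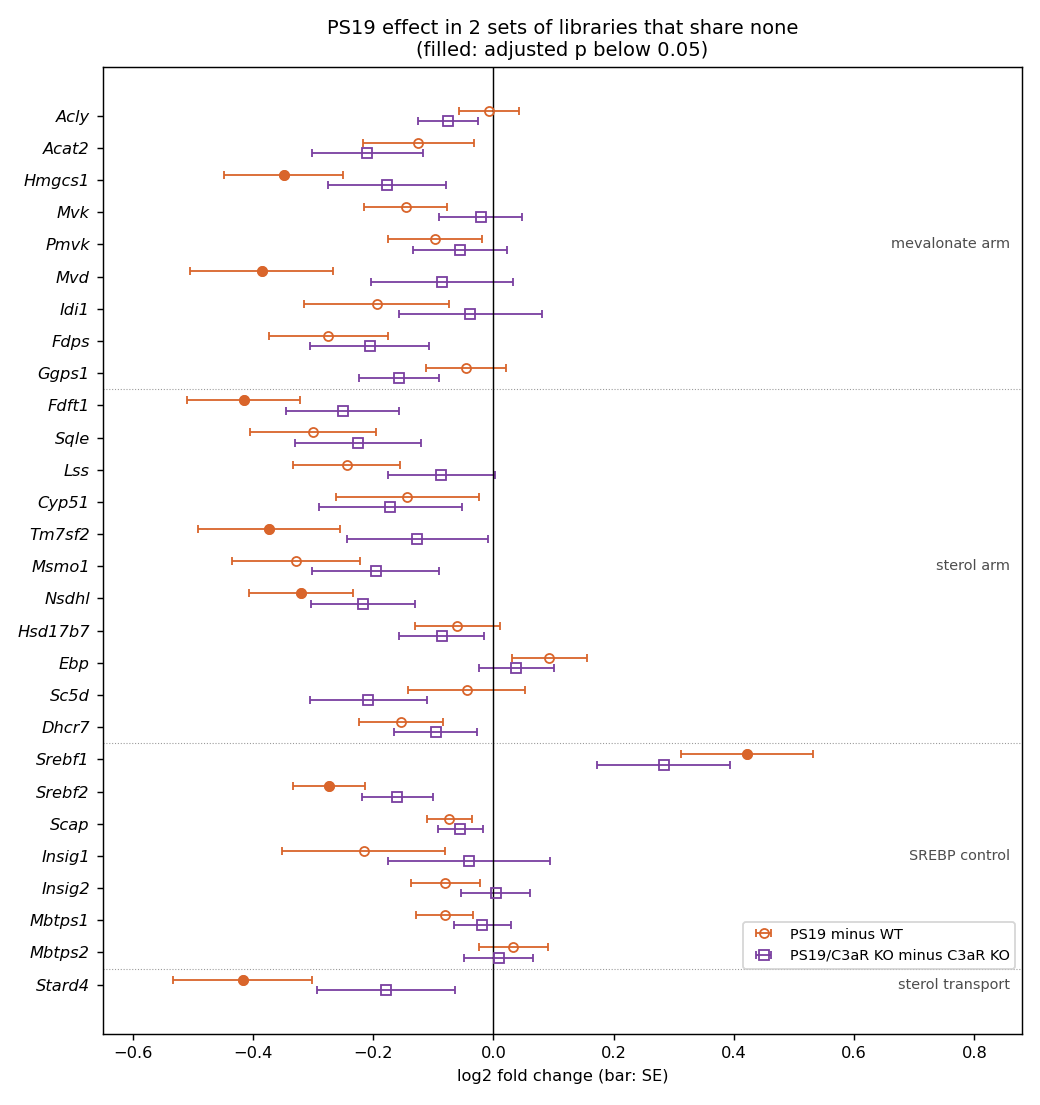
Log2 fold change (horizontal) of each of the 28 members between PS19 and WT (circles) and between PS19/C3aR KO and C3aR KO (squares), with bars for the SE and filled symbols where the adjusted p is under 0.05. For 24 members both symbols lie below 0, and for Srebf1 both lie above 0, at 0.42 and 0.28.

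Whether the transgene difference itself depended on the deletion was tested with the interaction term. No member passed edgeR's test, where 0.012% of all genes did, and 0 had an unadjusted p under 0.05, where 4.15% of all genes did. DESeq2 and limma-voom also called 0. The intervals remained wide beside the fold changes: for Mvd the interaction was 0.30 with a 95% interval of -0.052 to 0.65, for Hmgcs1 0.17 with -0.12 to 0.46, for Fdft1 0.17 with -0.11 to 0.44 and for Srebf1 -0.14 with -0.47 to 0.19. A difference in the transgene effect between libraries with and without the deletion was thus not detectable for any member at this depth and number of libraries.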

How the data were processed

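Polyadenylated RNA from the hippocampus was sequenced as paired 76-nt reads, aligned with TopHat2 2.0.9 to mm10 and counted with htseq-count over union exons, per the labels' protocols. The submitters' processing notes also name DESeq2. No source used here gives the annotation release or the strand setting. The deposited values are raw read counts per gene in 20 libraries, and the 5 summary lines of each table were left out. The lines for reads outside genes and for ambiguous reads came to between 17.4% and 25.4% and between 1.39% and 1.64% of each library. No library pair of a genotype agreed within sampling noise.

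Counts were scaled with TMM factors and tested with edgeR 4.0.16 (R 4.3.3): a quasi-likelihood fit over all 4 genotypes, filterByExpr with a count minimum of 10 and a total minimum of 15, and Benjamini-Hochberg adjustment over 16657 genes. CPM values use TMM-scaled library sizes. DESeq2 1.42.0 and limma-voom (limma 3.58.1) were alternatives. Beside the settings planned at the outset, scaling by library size alone was added after the data were seen. In a test on simulated counts for PS19 against WT (16571 genes), 84.8% of the 100 genes with a 2-fold change were called, as were 36% of the 100 with a 1.3-fold change. No other gene was changed in the simulation, while 10.8% of all genes were called in the data. The adjustment is therefore stricter in the simulation, and its shares are not the power of the reported test. Exon lengths and overlaps come from GENCODE vM21 and promoters from RefSeq. The members, gene lists and cell type markers were chosen with earlier results of these data known. The rule for named genes took every called member and Srebf1, Srebf2, Scap, Insig1 and Insig2 with values by library, the 3 called genes of lowest p in other lists, and C3ar1, Prnp and Mapt for the labels. Lipa, Fasn, Ctsb and members named just outside a threshold were chosen after their values were seen.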

Additional observations from a re-analysis of the deposited data

Results flagged for a closer look

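In 7 of 112 sets of 5 libraries, 1 set for each member and genotype, 1 library stood far from the other 4 by Dixon's test, and chance gives such a gap in about 1 set in 20. In 4 of them it was C3aR KO library 5, above the rest. Mvd stood there at 17.4 CPM with the next value at 14.8, Idi1 at 52.4 with the next at 42.5, Msmo1 at 91.1 with the next at 76.7, and the 7-dehydrocholesterol reductase gene Dhcr7 at 41.0 with the next at 35.9. That library also had the highest enzyme sum of the 20, 1254 CPM, with the lowest of the 20 at 795 CPM in PS19 library 3. Scap stood at 132.5 CPM in WT library 4, above 125.0 in the next. Mbtps2 stood at 28.3 CPM in WT library 2, below 32.9 in the next, and at 30.4 CPM in PS19/C3aR KO library 3, below 33.4.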

How the results depend on the processing

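The median member log2 fold change kept its direction in all 4 comparisons between genotypes under every setting run, and Fdft1 and Srebf2 stayed called between PS19 and WT in every setting except the Rn45s covariate. The number of members called between PS19 and WT, 8 in the fit reported, was 10 with DESeq2, 8 with limma-voom, 6 without a filter, 9 with a stricter filter, 7 with upper-quartile scaling, 6 with library size scaling, 6 with only the groups compared, 7 with a choroid plexus covariate, 0 with the Rn45s covariate, and 2 to 11 with 1 library left out. Between PS19/C3aR KO and PS19 it was 0 in the fit reported, 2 with DESeq2, and 0 to 4 with 1 library left out. With the replicate block it was 11 between PS19 and WT and 1 between PS19/C3aR KO and PS19, Srebf1 at -0.33 (edgeR adjusted p = 0.0303). Between PS19 and WT the share of all genes called moved too, from 10.8% in the fit reported to 2.59% with the Rn45s covariate. That share is not given here for most settings, so a change in the member count is not a result about the members alone. Whether the replicate numbers pair the libraries is not settled by the values. Of 30 same-numbered pairs, 16 had a correlation over 0.1, with a range over all pairs from -0.27 to 0.55. Of the 20 libraries, 6 correlated best with their own number. Signs turned only for values that no setting called. Srebf2 between C3aR KO and WT was 0.00019 in the fit reported. It was -0.0016 with limma-voom, -0.0022 with the replicate block and -0.0325 to 0.0313 with 1 library left out. Mvd in that comparison was -0.031 in the fit reported. It was 0.042 with the Rn45s covariate, 0.0076 with library size scaling and -0.087 to 0.053 with 1 library left out. The interaction of Nsdhl was 0.10 in the fit reported and -0.000204 with the Rn45s covariate. The cause of these differences was not tested. With standard errors of 0.037 to 0.135 for the members between PS19 and WT (log2), smaller differences than those called could be missed.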

Other observations

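Of the 5 lists of neighbouring pathway genes, 1 gene passed edgeR's test outside the comparison between PS19 and WT. Coq2, whose enzyme joins the isoprenoid tail to the ubiquinone ring, averaged 45.8 ± 2.76 CPM in WT libraries and 41.9 ± 1.51 CPM in PS19 libraries (SD, n = 5). In libraries labelled as lacking the receptor it averaged 58.5 ± 5.34 CPM without the transgene and 56.7 ± 5.64 CPM with it. Between PS19/C3aR KO and PS19 it had a log2 fold change of 0.44, SE 0.068 and edgeR adjusted p = 0.0115, with every PS19/C3aR KO value above every PS19 value. Between C3aR KO and WT the groups did not overlap either, and the test gave a log2 fold change of 0.35, SE 0.068 and edgeR adjusted p = 0.0530. Coq2 was named because it passed, where 0.252% of all genes passed between PS19/C3aR KO and PS19. How many of all genes had groups without overlap in these comparisons is not given here, so its lack of overlap is a description only.

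The cholesterol turnover and LXR list, which holds 3 genes that rose in PS19, had a median of -0.22 between PS19/C3aR KO and PS19, with 10 of its 12 genes below 0 and none called. Abca1, the exporter, averaged 66.3 ± 5.37 CPM in WT libraries, 129 ± 27.2 CPM with the transgene alone and 80.8 ± 17.1 CPM with transgene and deletion (SD, n = 5). Its log2 fold change between PS19/C3aR KO and PS19 was -0.68 (edgeR adjusted p = 0.0620). The 10 microglial markers were all below 0 in the same comparison, with a median of -0.55 and none called, and their part in these values was not tested.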
